A study of Mus musculus with 15 samples.

Results

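The samples described here are the kidney RNA that stayed unbound when tagged ribosomes were pulled out, on day 5 after ureteral obstruction against day 0. The arrays were chosen by their titles alone, 3 of day 0 (arrays 4 to 6) and 3 of day 5 (arrays 13 to 15), which are 6 of the 15 arrays of the series. All mice carried Tg:Col1a1-eGFPL10a, a transgene in which the collagen1α1 promoter/enhancer drives a fusion of eGFP and the ribosomal protein L10a. In translating ribosome affinity purification (TRAP) the ribosomes that carry this fusion are captured with the mRNA on them, and the unbound fraction is what the capture leaves behind. Day 0 kidneys came from mice with sham surgery and day 5 kidneys from mice with unilateral ureteral obstruction, a surgical block of the ureter of one kidney. The strain is given as C57/129sv, the sex as both, the age as P14-P300 and the tissue as kidney medulla, and the source label also carries the letters WT. Polysomal RNA was amplified once by a NuGEN protocol and labelled with biotin. Whether the 3 arrays of a group stand for separate animals or for pools is not stated in the labels. The p-values here therefore measure only how far arrays spread within groups, which may be technical. That spread was estimated for each gene over all 15 arrays, the ribosome-bound ones included, and the standard errors carry it too. The removed fraction is defined by the activity of 1 transgene promoter, and RNA of Col1a1-expressing cells that was not captured remains in the unbound fraction. The bound fractions of day 0 (arrays 1 to 3) and day 5 (arrays 10 to 12) come from the same genotype and surgery, and serve as the comparison.

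Obstruction raises the pressure in the nephron and stretches its epithelium. Tubule cells in this state are known to lose the transporters and enzymes of their segment, to switch on injury genes and to re-enter the cell cycle, while leukocytes enter the interstitium and fibroblasts and pericytes lay down collagen. The unbound fraction holds RNA of all these compartments, and in such bulk RNA fewer cells of a type and less RNA per cell cannot be told apart.

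Levels below are log2 of normalised signal, given for each array or as mean ± SD of 3 arrays, and differences are day 5 minus day 0 on the log2 scale ± standard error. Adjusted p-values come from limma with Benjamini-Hochberg adjustment over all 16864 genes tested, and a gene passed at an adjusted p under 0.05. A group whose mean lay at or under the highest negative control has only a bound, and its fold is then a lower limit (at least so many fold). The number of arrays limits the precision of every value.

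Arrays 6 and 15 stood apart in brightness, with hybridization controls that averaged 12114 and 12723 intensity units against 4856 to 5864 on the other 4 unbound arrays, and each group holds 1 of them. Array 15 also stood apart in its Y-linked genes, at 1.65 against 7.25 to 9.30 on the other 5. The first principal component of the 6 arrays held 57.5% of the variance and separated the days. The tissue label was checked against segment markers. Umod and Slc12a1 of the thick ascending limb and Slc14a2 of the inner medullary collecting duct were all measured well above the negative controls, but so was Slc34a1 of the cortical proximal tubule, at 11.11 ± 0.79 on day 0. Nphs1 of the podocyte, a cell of the cortical glomerulus, was at the negative controls in both groups. Nphs1 does not stand for all podocyte genes, as the 13 tested had a median level of 7.84 to 8.19 on the day 0 arrays. The highest negative controls of those arrays were at 3.93 to 4.57. In the bound fraction the mean of Nphs1 on day 0 was 9.55.

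Of the 16864 genes, 1747 passed (10.4%), 1085 of them higher (6.43%) and 662 lower (3.93%) on day 5. The groups did not overlap in 45.9% of genes, with the higher values on day 5 in 24.3% and the lower in 21.6%. The median difference over all genes was 0.01, and it was -0.22 with arrays centred on their medians, where 638 genes were higher and 727 lower. The counts were 454 higher and 198 lower without arrays 6 and 15, and between 520 and 765 higher and 250 and 446 lower without any single array (fewest without array 13, most without array 15). They were 2854 and 2426 with array weights, 2287 and 1967 with only both unbound groups in the fit, and 2455 and 2137 with quantile normalisation over the 6 arrays alone. Beside a gene list below, its counts without 1 array, without arrays 6 and 15 or with median centring are given where they are over 1.5 times off. For Perm1, Dmp1, Sox9, Trem2, Top2a, Mcm6 and Cd44 a further probe set of the gene had the opposite sign.

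**Figure D1:**
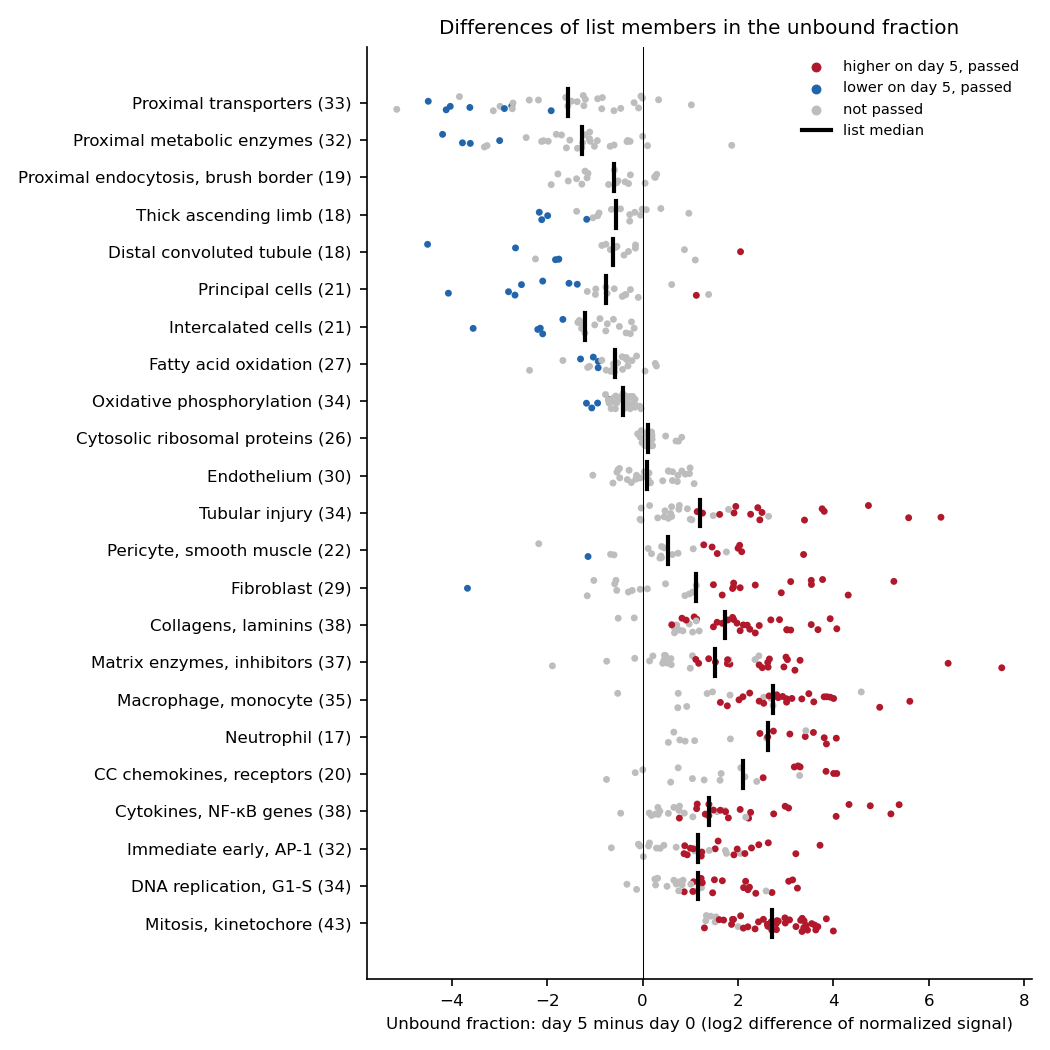
Gene lists in the unbound fraction. Each row is a list (number of genes tested in brackets) and each point a gene at its log2 difference, red or blue where it passed, with a black bar at the list median. The mitosis median lies at 2.71 and that of proximal transporters at -1.57.

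The 12 highest differences among genes that passed with groups not overlapping were led by Mmp7, a secreted matrix protease of injured epithelium. Its arrays read 3.39, 3.22 and 1.57 on day 0 and 10.06, 9.96 and 10.75 on day 5. Day 0 lay at the negative controls and day 5 far above them, so the gene was at least 68.7-fold higher (adjusted p = 1.72e-05). Sprr2f, a small proline-rich protein of stressed epithelia, rose 92.6-fold, and Timp1, an inhibitor of matrix proteases, 84.7-fold. For Timp1, array 5 of day 0 lay under its negative controls, so that fold is less certain. Havcr1, the injury molecule KIM-1, rose 76.3-fold and Lgi2 74.8-fold. The scavenger receptor gene Scara3 was at least 21.7-fold higher, Dmp1, an acidic matrix protein of bone, at least 16.7-fold and Foxj1, a factor of motile cilia, at least 10.4-fold. The others were Clec4d, a lectin of myeloid cells (at least 23.9-fold), Fcrls (at least 50.04-fold), the protocadherin gene Pcdh8 (at least 35.2-fold) and Ltbp2, which binds to microfibrils (at least 25.8-fold).

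The 12 lowest were headed by Sycn, which codes for syncollin of secretory granules. It read 10.36, 9.15 and 9.15 on day 0 and 3.64, 2.35 and 4.61 on day 5. The lowest day 0 array was far above the highest day 5 array, and the gene was at least 39.8-fold lower (adjusted p = 0.000139). Cbln1, Alox12b, Odf4 and Cpne4 were at least 14.8-fold, 9.47-fold, 11.2-fold and 2.81-fold lower, all 4 at the negative controls on day 5, and Cpne4 did not pass without array 4 or 13 or without arrays 6 and 15 (adjusted p = 0.0503 to 0.0888). Ugt3a1, a glycosyltransferase, fell 24.2-fold, the prostaglandin receptor gene Ptger1 21.2-fold and Perm1, a regulator of muscle mitochondria, 21.6-fold. Trim63, a ubiquitin ligase known from muscle, was at least 5.61-fold lower. The remaining 3 were the tubule genes Slc22a8, Hpd and Pvalb, described below.

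The transporters of the proximal tubule that passed were all lower. Of 33 tested, 0 rose, 7 fell and 26 did not pass, and their median difference was -1.57. The organic anion transporter Slc22a6 (OAT1) read 11.12, 9.19 and 9.80 on day 0 and 5.94, 6.61 and 5.47 on day 5. Every day 5 array was below every day 0 array, and Slc22a6 fell 16.4-fold (-4.03 ± 0.71, adjusted p = 0.00376). Its relatives Slc22a7 (OAT2) and Slc22a8 (OAT3) fell 17.4-fold (adjusted p = 0.00201) and at least 12.7-fold (adjusted p = 0.0027). Slc34a1, the sodium-phosphate cotransporter of the brush border, read 11.69, 10.21 and 11.43 against 8.61, 9.12 and 8.47. These groups did not overlap either, but the difference of -2.38 ± 0.77 did not pass (adjusted p = 0.0722). The largest difference of the list, that of the steroid and anion transporter Slco1a1, did not pass (-5.15 ± 1.90, adjusted p = 0.111). Its day 5 arrays read 6.40, 6.88 and 0.84, and the low one was array 15, the array with low Y-linked signal. The part of the Y-linked difference in these values was not tested beyond a covariate, with which 11 transporters were lower. The count was 4 without array 4, 6 or 13.

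Enzymes of proximal metabolism moved in the same direction, with 4 of 32 lower, 0 higher and a median of -1.27. Hpd, an enzyme of tyrosine breakdown, read 11.17, 8.96 and 9.57 on day 0 and 5.28, 6.37 and 5.47 on day 5. The groups stood apart by more than their spread, and Hpd fell 18.3-fold (adjusted p = 0.00226). G6pc, the glucose-6-phosphatase of gluconeogenesis, fell 13.7-fold (adjusted p = 0.00668) and the cytochrome P450 Cyp4b1 7.99-fold (adjusted p = 0.00378). Without arrays 6 and 15 the list had 2 calls, and G6pc did not pass (adjusted p = 0.0715). None of 19 genes of endocytosis and the brush border passed. In 6 of the 19 the groups did not overlap, with the lower values on day 5, against 21.6% of all genes. The median of the 19 was -0.59, and the largest difference was that of Lrp2, the endocytic receptor megalin (-1.92 ± 0.72, adjusted p = 0.121).

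In the thick ascending limb 4 of 18 markers fell, 0 rose and the median was -0.56. Egf, the precursor of epidermal growth factor made by this segment, read 12.91, 12.95 and 13.31 on day 0 and 11.37, 10.76 and 11.07 on day 5. It fell 3.98-fold (-1.99 ± 0.40, adjusted p = 0.00832). Tmem207 fell 4.49-fold (adjusted p = 0.000886). Umod, uromodulin, stayed within the spread of its arrays, at 13.61 ± 0.13 and 13.57 ± 0.08 (-0.04 ± 0.22, adjusted p = 0.929), and the cotransporter Slc12a1 did not pass (-0.47 ± 0.35, adjusted p = 0.474). The 4 calls were 2 without array 4, 5, 6, 13 or 14 and 1 without arrays 6 and 15, where Egf did not pass (adjusted p = 0.0881).

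Markers of the distal convoluted tubule had 4 lower, 1 higher and 13 not passed of 18, with a median of -0.62. Pvalb, a calcium buffer of the early part of this segment, read 6.95, 5.83 and 6.70 against 1.75, 2.32 and 1.90. Its day 5 arrays were all at the negative controls, and it was at least 6.32-fold lower (adjusted p = 0.000567). The basolateral potassium channel Kcnj10 fell 6.34-fold (adjusted p = 0.00886) and the kinase Wnk4 3.55-fold (adjusted p = 0.00863). The gene that rose was the magnesium channel Trpm6, 4.15-fold (adjusted p = 0.0418), but it did not pass without any 1 array, without arrays 6 and 15 or with averaged probe sets (adjusted p = 0.0582 to 0.138). Slc12a3, the thiazide-sensitive cotransporter, did not pass at -2.25 ± 0.70 (adjusted p = 0.0617). Without arrays 6 and 15 the list had 1 gene lower, and neither Kcnj10 (adjusted p = 0.091) nor Wnk4 (adjusted p = 0.0717) passed.

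Principal cell markers of the collecting duct had 7 lower, 1 higher and 13 not passed of 21, with a median of -0.77. Aqp2, the water channel that vasopressin regulates, read 10.21, 10.40 and 10.27 on day 0 and 7.33, 7.09 and 8.02 on day 5. The day 0 arrays lay close together and above all of day 5, and Aqp2 fell 7.02-fold (-2.81 ± 0.45, adjusted p = 0.00234). Avpr2, the vasopressin receptor upstream of it, fell 6.39-fold (adjusted p = 0.00582), and the basolateral water channel Aqp3 fell 5.82-fold (adjusted p = 0.00136). The tetraspanin gene Tspan1 fell 16.8-fold (adjusted p = 0.000576). Of 21 intercalated cell markers 5 fell, 0 rose and the median was -1.21. Slc4a1, the chloride-bicarbonate exchanger of acid-secreting cells, read 10.94, 11.42 and 11.71 against 8.47, 7.21 and 7.73 and fell 11.7-fold (adjusted p = 0.0037). The ammonia channel Rhbg fell 4.27-fold (adjusted p = 0.0083). Without arrays 6 and 15 the counts were 4 lower for principal cells and 0 for intercalated cells, with Slc4a1 at an adjusted p of 0.0528 and Rhbg at 0.0763. The 1 higher principal cell call was 0 with median centring. Intercalated cells had 2 calls without array 4, 5, 6, 13 or 14 and 3 without array 15 or with median centring.

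Medullary osmolyte and urea genes had 2 of 13 lower, 0 higher and a median of -0.08. With median centring that median was -0.44, against -0.22 over all genes. Slc6a12, the betaine transporter, fell 7.01-fold (adjusted p = 0.00191). The inositol transporter Slc5a3 (-0.05 ± 0.29), the urea transporter Slc14a2 (-0.08 ± 0.43) and the water channel Aqp1 (-0.09 ± 0.40), which also marks thin descending limbs, had overlapping groups and did not pass. The 2 calls were 1 without array 4, 5, 6, 13 or 14 or without arrays 6 and 15.

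**Figure D2:**
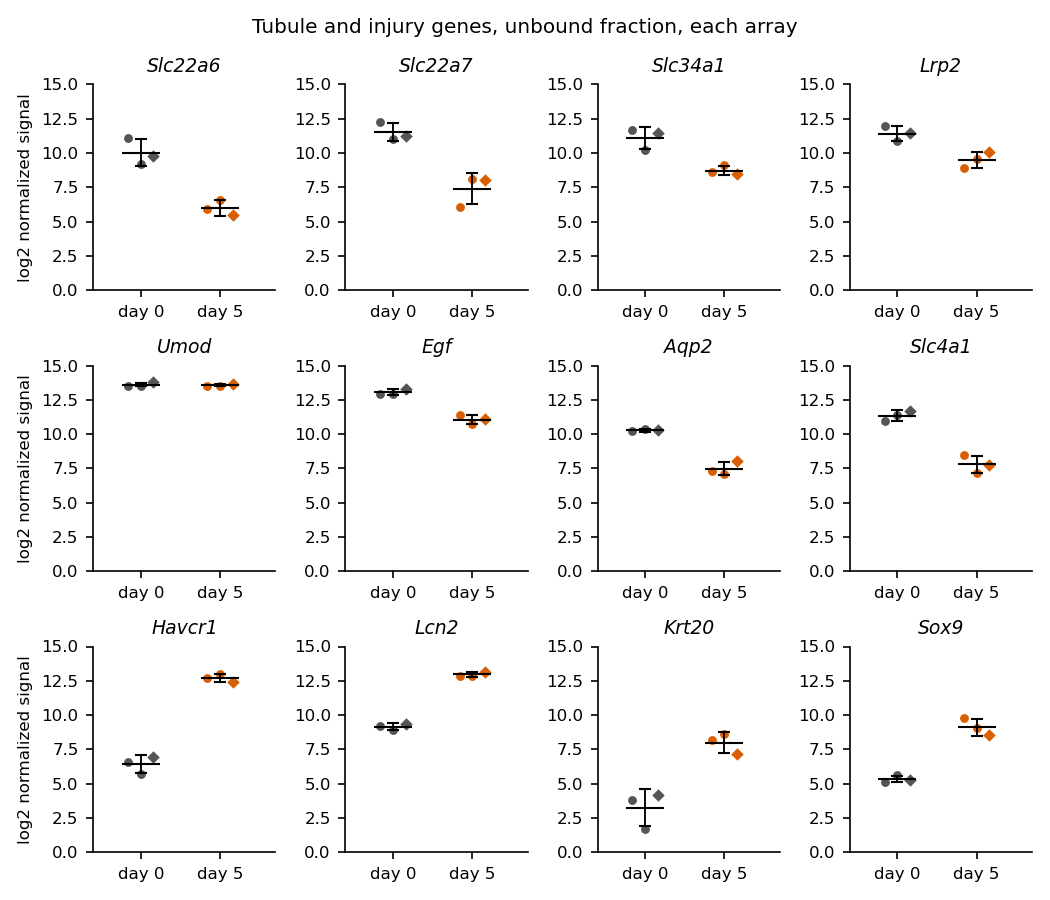
Tubule and injury genes in each of the 6 unbound arrays, in log2 normalised signal. Points are arrays, diamonds the bright arrays 6 and 15, and bars the mean ± SD of 3 arrays. Havcr1 and Lcn2 sit higher on day 5, Slc22a6 and Aqp2 lower, and Umod at the same height on both days.

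Genes of mitochondrial metabolism had lower medians with few calls. Of 23 genes of the citric acid cycle and its entry reactions 5 fell and 0 rose (median -0.49), of 27 fatty acid oxidation genes 4 fell and 0 rose (median -0.59), and of 34 respiratory chain subunits 4 fell and 0 rose (median -0.41). In the last list 26 of 34 genes had groups that did not overlap, all lower on day 5, against 21.6% of all genes. Suclg1, a subunit of succinyl-CoA ligase, read 12.33, 12.27 and 12.57 on day 0 and 9.16, 8.78 and 10.53 on day 5 and fell 7.48-fold (adjusted p = 0.00269). Sdhb, a subunit of succinate dehydrogenase, fell 2.25-fold (adjusted p = 0.00141), and Pcx, pyruvate carboxylase, 8.72-fold (adjusted p = 0.0059). Acadsb, an acyl-CoA dehydrogenase, fell 2.05-fold (adjusted p = 0.00497). Ppara, the nuclear receptor that drives fatty acid oxidation genes, had non-overlapping groups at 9.01 ± 0.05 and 7.34 ± 0.23, but did not pass (-1.67 ± 0.52, adjusted p = 0.06). Hk2, the hexokinase at the entry of glycolysis, rose 8.70-fold (adjusted p = 0.00132), the only member of the 28 glycolysis genes to rise, while 1 fell (0 without array 13 or 14, 2 with median centring) and the median was -0.12.

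Leaving out arrays lowered these counts. The fatty acid list had 1 call without array 4, 5 or 13 and 2 without array 14, the citric acid list 3 without any 1 array, and the respiratory list 0 without array 4, 6 or 13 and 1 without array 5, 14 or 15. Without arrays 6 and 15 the counts were 1, 2 and 0, and Pcx (adjusted p = 0.0532) and Acadsb (adjusted p = 0.0621) did not pass. Peroxisome genes had 2 of 24 lower, against 3.93% of all genes, and 0 higher, with a median of -0.70. The 2 peroxisome calls were 0 without array 4 or 13 or without arrays 6 and 15, and 1 without array 5 or 15. Of 18 cholesterol synthesis genes 3 fell and 0 rose (median -0.49), with 0 calls without array 4, 6 or 13 or without arrays 6 and 15 and 1 without array 14 or 15.

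Tubular injury genes were higher, with 15 of 34 up, 0 down and a median of 1.20. Havcr1 read 6.60, 5.74 and 6.98 on day 0 and 12.71, 12.96 and 12.42 on day 5. The day 5 arrays were close to each other and far above day 0, a difference of 6.25 ± 0.56 (adjusted p = 6.09e-05). Lcn2, the iron-scavenging protein NGAL, read 9.24, 8.92 and 9.35 against 12.87, 12.88 and 13.18 and rose 14.0-fold (3.81 ± 0.28, adjusted p = 1.76e-05). Sox9, a transcription factor of regenerating tubule cells, rose 13.6-fold (adjusted p = 0.00201), and the hyaluronan receptor Cd44 10.5-fold (adjusted p = 0.000103). Clu, the secreted chaperone clusterin, rose 5.49-fold (adjusted p = 0.000389) and the adhesion molecule Vcam1 4.80-fold (adjusted p = 0.0016).

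Krt20, a keratin of umbrella cells and of injured tubules, was at least 13.4-fold higher (adjusted p = 0.00114), its day 0 arrays being at the negative controls. Fgb, the beta chain of fibrinogen, read 2.64, 1.42 and 2.12 against 6.73, 8.77 and 7.41 and was at least 11.1-fold higher (adjusted p = 0.00141). Its partner chain Fga did not pass (1.80 ± 0.70, adjusted p = 0.131) and is named here after its values were seen, to stand beside Fgb. Krt19 did not pass (1.48 ± 0.58, adjusted p = 0.136). The list had 9 calls without arrays 6 and 15, and its median was 1.34 in that pair of arrays alone and 1.19 in the other 4. Of 17 urothelial genes 3 rose, Krt20, Sprr2f and Sprr1a, and 0 fell. Sprr1a, which rose 3.87-fold (adjusted p = 0.0313), did not pass without any 1 array, without arrays 6 and 15 or with median centring (adjusted p = 0.0634 to 0.197). The uroplakins that define the urothelium did not pass, with Upk1b at -0.73 ± 0.57 and Upk3a at -1.54 ± 0.61. The urothelial median was -0.73, and 0.00 with dim values raised to the negative controls.

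Of 27 genes of the oxidative stress response 5 rose and 1 fell, and the median was -0.04. Of the 5 that rose, 3 code for subunits of the phagocyte NADPH oxidase, which makes superoxide: Ncf1 (9.11-fold, adjusted p = 0.00271), Cybb (5.81-fold, adjusted p = 0.0369) and Ncf4 (4.79-fold, adjusted p = 0.0334). Cybb and Ncf4 did not pass without any 1 array or without arrays 6 and 15, nor Cybb with averaged probe sets (adjusted p = 0.0617 to 0.172). The aldo-keto reductase Akr1b8 rose 3.79-fold (adjusted p = 0.00141). Hmox1, heme oxygenase, rose 4.38-fold (adjusted p = 0.0417) but did not pass without array 4, 5, 6, 13 or 14, without arrays 6 and 15 or with median centring (adjusted p = 0.051 to 0.172). The quinone reductase Nqo1 was the gene that fell, 2.38-fold (adjusted p = 0.0455), and it did not pass without any 1 array or under 5 other settings (adjusted p = 0.0509 to 0.197). The 5 higher calls of the list were 2 without array 4, 5, 6, 13 or 14 or without both bright arrays, and 3 without array 15, and 2 genes were lower with median centring. Of 21 genes of the p53 response and cell cycle arrest 2 rose (against 6.43% of all genes), 0 fell and the median was 0.50. These calls were 0 without array 4 or 13, without arrays 6 and 15 or with median centring, where 1 gene was lower, and 1 without array 6 or 15. Cdkn1a, the cell cycle inhibitor p21, did not pass (0.55 ± 0.45, adjusted p = 0.51).

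Many fibroblast genes rose in the fraction from which Col1a1-driven ribosomes had been taken. Of 29 tested 14 rose, 1 fell and 14 did not pass, with a median of 1.12. Thy1, a surface protein of fibroblasts and T cells, read 6.09, 5.62 and 5.71 on day 0 and 11.40, 11.05 and 10.76 on day 5. It rose 38.5-fold (5.27 ± 0.30, adjusted p = 4.08e-06). The microfibril protein Mfap4 rose 13.7-fold (adjusted p = 0.00421), the matricellular protein Postn 11.6-fold (adjusted p = 0.00262) and Fap, a protease of activated fibroblasts, at least 10.4-fold (adjusted p = 0.00228). Meox2, a homeobox factor of mesenchyme and endothelium, was the 1 gene that fell, at least 11.3-fold (adjusted p = 0.0015).

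Of 22 pericyte and smooth muscle genes 7 rose, 1 fell and the median was 0.54. Acta2, smooth muscle actin, read 10.65, 10.51 and 10.81 against 12.70, 12.37 and 12.90, with tight groups that did not overlap, and rose 4.00-fold (adjusted p = 0.000172). Tagln, transgelin, rose 4.09-fold (adjusted p = 0.000197), the adhesion molecule Mcam 4.22-fold (adjusted p = 0.00148) and the enteric actin Actg2 10.4-fold (adjusted p = 0.00867). Pdgfrb, a receptor of pericytes and fibroblasts that is counted in the fibroblast list, rose 3.74-fold (adjusted p = 0.00279). The 1 lower call of the pericyte and smooth muscle list was 0 without array 4, 6, 13, 14 or 15, without arrays 6 and 15 or with median centring.

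Endothelial genes gave no call. None of the 30 rose or fell. Groups did not overlap for 11 that were higher and 6 that were lower, against 24.3% and 21.6% of all genes. The median of 0.09 turned to -0.22 with median centring, as did the median of all genes. Pecam1 was at 8.12 ± 0.12 and 8.65 ± 0.20 (0.54 ± 0.61), Kdr at -0.62 ± 1.12, Emcn at -0.51 ± 0.43 and Plvap, a marker of fenestrated vessels, at -0.13 ± 0.41. Podocyte genes had 3 of 13 higher and 1 lower, but 1 higher without array 4 or without arrays 6 and 15, and 0 lower without any 1 array or without arrays 6 and 15. Synpo, synaptopodin, rose 2.61-fold (adjusted p = 0.00661), but it did not pass with median centring, with averaged probe sets or without arrays 6 and 15 (adjusted p = 0.0647 to 0.551). The podocyte factor Wt1 did not pass (0.80 ± 0.35, adjusted p = 0.182).

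Most matrix genes rose. Of 38 collagen, laminin and related genes 27 rose, 0 fell and 11 did not pass, and 36 had groups that did not overlap with the higher values on day 5, against 24.3% of all genes. The median was 1.73. Col1a1, whose promoter drives the transgene, read 8.95, 9.05 and 9.56 on day 0 and 12.38, 12.31 and 12.17 on day 5. Day 5 was tight and well above day 0, and Col1a1 rose 8.60-fold (3.10 ± 0.19, adjusted p = 5.55e-06). Col3a1, its fibrillar partner, rose 5.14-fold (adjusted p = 3e-05), Col5a2 16.8-fold (adjusted p = 1.76e-05) and Col12a1 15.3-fold (adjusted p = 0.000222). Fn1, fibronectin, rose 4.32-fold (adjusted p = 0.00547) and the matricellular Thbs2 12.8-fold (adjusted p = 0.000704).

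Enzymes that cut or crosslink matrix and their inhibitors had 19 of 37 higher, 0 lower and a median of 1.53. Timp1 read 5.12, 3.43 and 4.31 against 10.92, 10.89 and 10.26 (6.40 ± 0.48, adjusted p = 1.76e-05). Its value of 3.43 on array 5 lay under the highest negative control of that array, 4.57. Next to Timp1 and Mmp7, the aggrecanase Adamts4 rose 9.85-fold (adjusted p = 4.59e-05), the membrane-bound protease Mmp14 9.14-fold (adjusted p = 0.000727) and stromelysin Mmp3 8.20-fold (adjusted p = 0.000499). Of 33 genes of TGF-β, activin and CCN signalling 10 rose, 0 fell and the median was 0.49, with 6 higher under median centring. Among the ligands, Inhbb, the activin B subunit, rose 11.5-fold (adjusted p = 0.000886) and Tgfb1 did not pass (1.33 ± 0.54, adjusted p = 0.149). Tgfb2 rose 2.77-fold (adjusted p = 0.00924), but not with median centring or without arrays 6 and 15 (adjusted p = 0.0943 and 0.0982). Among the known targets, Tgfbi rose 8.83-fold (adjusted p = 7.49e-05) and Ccn1 5.67-fold (adjusted p = 0.000266).

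**Figure D3:**
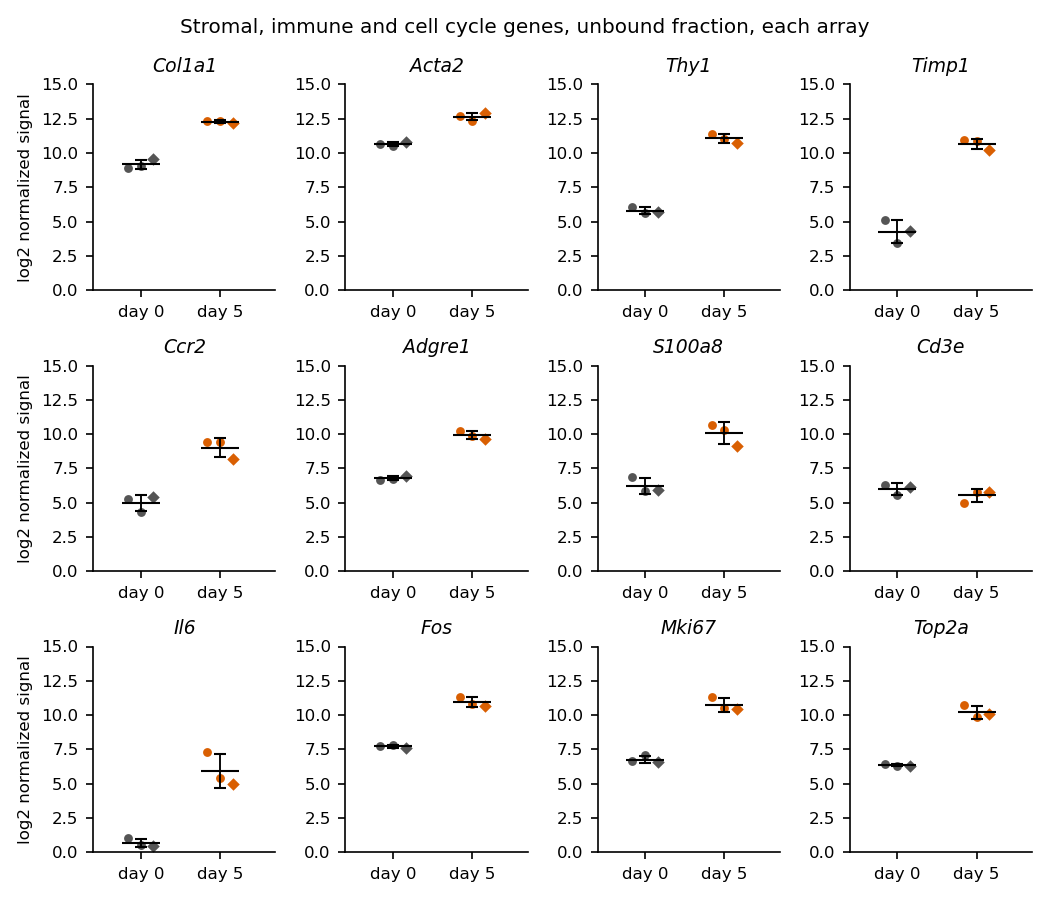
Stromal, immune and cell cycle genes in each of the 6 unbound arrays, in log2 normalised signal. Points are arrays, diamonds are the bright arrays 6 and 15, and bars are mean ± SD of 3 arrays. Col1a1 and Mki67 are higher on every day 5 array than on any day 0 array.

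Growth factors and their receptors had few calls. Of 37 tested 3 rose, 3 fell and the median was -0.02, while 6.43% of all genes rose and 3.93% fell. Besides Egf, Vegfb fell 3.58-fold (10.12, 10.24 and 9.71 against 8.18, 8.23 and 8.14, adjusted p = 0.000648) and Fgf9 3.67-fold (adjusted p = 0.000887). With median centring 0 were higher and 5 lower, and 1 was higher without array 4, 5, 6, 13 or 14 or without both bright arrays. In the list of vasoactive and prostanoid genes 2 rose and 3 fell of 26, with a median of -0.41, beside the same shares over all genes. Edn1, the vasoconstrictor endothelin, rose 6.36-fold (adjusted p = 0.00671), but did not pass without arrays 6 and 15 (adjusted p = 0.0702). The 3 lower calls were 1 without array 4, 13 or 15 or without arrays 6 and 15, and the 2 higher calls 1 without arrays 6 and 15 or with median centring.

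Most macrophage and monocyte genes rose, with 24 of 35 higher, 0 lower and a median of 2.73. Their median level per array was 6.58 to 6.85 on day 0 and 9.20 to 9.92 on day 5. Trem2, a lipid receptor of tissue macrophages, read 2.96, 2.08 and 2.20 on day 0 and 8.48, 6.76 and 6.89 on day 5. The day 0 arrays were at the negative controls, and Trem2 was at least 9.36-fold higher (adjusted p = 0.000788). Clec4n, the receptor dectin-2, was at least 7.72-fold higher (adjusted p = 0.00136). Ccr2, the receptor that brings monocytes into tissue, rose 16.05-fold (adjusted p = 0.00906) and Ms4a6c 15.3-fold (adjusted p = 0.00323).

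Defining macrophage genes did not all pass. Adgre1, a receptor used to mark mouse macrophages, read 6.65, 6.76 and 6.98 against 10.26, 9.85 and 9.68 and rose 8.75-fold (adjusted p = 0.0248), but did not pass without any 1 array or without arrays 6 and 15 (adjusted p = 0.0549 to 0.116). Csf1r, the receptor on which these cells depend, did not pass (0.74 ± 0.63, adjusted p = 0.532), nor did Cd68 (1.46 ± 0.60, adjusted p = 0.155). The list had 14 calls without array 13 and 13 without arrays 6 and 15.

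Neutrophil genes had 9 of 17 higher and 0 lower. Their median was 2.62, but 0.76 with dim values raised to the negative controls, since many of these genes were dim on day 0. S100a9, a calprotectin subunit, read 7.84, 7.18 and 7.45 against 12.10, 11.84 and 10.72 and rose 16.7-fold (adjusted p = 0.00535). Its partner S100a8 rose 14.4-fold (adjusted p = 0.00931), but not without array 13 (adjusted p = 0.0503), where the list had 5 calls. Lymphocyte genes had 3 of 23 higher and 0 lower with a median of 0.62, or 0.33 with dim values raised to the negative controls. Cd3e, a chain of the T cell receptor complex, had overlapping groups (-0.46 ± 0.61, adjusted p = 0.708). Cd4, found on T cells and on monocytes, was at least 4.95-fold higher (adjusted p = 0.0169) but did not pass without array 13 or 14 (adjusted p = 0.0597 and 0.0757). The 3 lymphocyte calls were 1 without array 5 and 0 without array 13 or 14.

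Antigen presentation genes showed smaller differences. Of 11 class II genes 3 rose, 0 fell and the median was 1.05, with 1 call without arrays 6 and 15. H2-DMb2, which loads peptides onto class II molecules, rose 9.61-fold (adjusted p = 0.00781), while Cd74, the invariant chain, had overlapping groups (0.40 ± 0.55) and H2-Ab1 did not pass (1.09 ± 0.61, adjusted p = 0.313). Of 14 class I and immunoproteasome genes 5 rose, 0 fell and the median was 0.69. Those 5 calls were 2 with median centring or without arrays 6 and 15, 1 without array 4, 13 or 14 and 3 without array 5 or 15.

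Complement genes had 6 of 21 higher, 0 lower (1 without array 4) and a median of 1.83. The median was 1.04 with dim values raised to the negative controls, 0.77 in arrays 6 and 15 alone and 2.24 in the other 4. C1qa and C1qc, chains of the recognition molecule C1q, rose 7.64-fold (adjusted p = 0.00529) and 8.72-fold (adjusted p = 0.00247). C3ar1, a complement receptor of myeloid cells, rose 7.03-fold (adjusted p = 0.00201). Acute phase genes had 5 of 20 higher, 0 lower and a median of 1.57, or 1.19 with dim values raised to the negative controls. Ceruloplasmin (Cp) rose 4.81-fold (adjusted p = 0.00392) and Lbp, which binds lipopolysaccharide, 3.95-fold (adjusted p = 0.00279). Of 30 interferon response genes 7 rose and 1 fell, with a median of 0.74. The guanylate-binding protein Gbp2 rose 4.19-fold (adjusted p = 0.00351). The 7 interferon calls were 3 with median centring, 1 without array 4 or without arrays 6 and 15, 2 without array 6 or 13 and 3 without array 14 or 15, and the 1 lower call was 0 under each of these settings and without array 5.

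Many cytokine and chemokine genes rose. Promoters of 2 of the genes that passed are shown first, because each holds a match to a binding motif of NF-κB, a factor known to switch on both genes. The sequences are from RefSeq (GRCm38.p6), 5′ to 3′ on the strand of the gene and 150 bases up to its start. Capitals mark a match to GGG, then 3 bases of any kind, then TTCC on either strand.

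Il6 (chr5:30012964-30013113, plus strand): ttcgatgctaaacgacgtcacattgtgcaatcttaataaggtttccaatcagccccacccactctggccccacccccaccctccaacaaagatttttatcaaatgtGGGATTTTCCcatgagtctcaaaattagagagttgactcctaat
Ccl20 (chr1:83116616-83116765, plus strand): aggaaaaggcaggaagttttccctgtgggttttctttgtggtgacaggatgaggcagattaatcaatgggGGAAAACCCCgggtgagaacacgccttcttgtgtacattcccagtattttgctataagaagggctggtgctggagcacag

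This motif was found on either strand within the 250 bases before the start in 6 of 31 promoters of cytokine and NF-κB genes (19.4%) and in 666 of all 13406 promoters searched (4.97%). A match is a run of letters and does not show that a factor was bound. The motifs shown here and further below were settled on after several had been counted, so the shares are descriptions.

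Of 38 cytokine and NF-κB genes 22 rose, 0 fell and the median was 1.39. Il6, the interleukin that induces acute phase proteins, read 1.05, 0.57 and 0.48 on day 0 and 7.32, 5.39 and 5.01 on day 5. Day 0 was at the negative controls on every array, and Il6 was at least 3.36-fold higher (adjusted p = 0.000648). Further ligands that signal through the same receptor subunit gp130 were higher. Lif read 4.85, 3.74 and 4.12 against 9.88, 8.63 and 8.51 and rose 27.3-fold (adjusted p = 0.000267), though array 5 lay under its negative controls. Il11 was at least 9.19-fold higher (adjusted p = 0.00319). Socs3, the feedback inhibitor of that receptor, rose 16.6-fold (6.89, 7.41 and 6.78 against 11.21, 11.06 and 10.98, adjusted p = 4.59e-05). Il1rn, the interleukin 1 receptor antagonist, was at least 18.8-fold higher (adjusted p = 0.00153), while Il1b had overlapping groups (0.54 ± 0.46, adjusted p = 0.533). The cytokine calls were 12 with median centring and 14 without array 13 or without arrays 6 and 15.

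Of 20 CC chemokines and receptors 7 rose, 0 fell and the median was 2.10, or 1.46 with dim values raised to the negative controls. Ccl20, which attracts Ccr6-bearing cells, read 1.23, 1.13 and 1.13 against 6.32, 4.04 and 5.34 and was at least 2.11-fold higher (adjusted p = 0.00136). The monocyte attractant Ccl12 rose 9.58-fold (adjusted p = 0.000512) and the receptor Ccr1 9.86-fold (adjusted p = 0.000276). Ccl2 rose 5.76-fold (adjusted p = 0.0211), but not without array 5, 6 or 13 or without arrays 6 and 15 (adjusted p = 0.0654 to 0.0972). Of 19 CXC chemokines and receptors 9 rose, 1 fell and the median was 1.39. Pf4, platelet factor 4, rose 7.33-fold (adjusted p = 0.00633), and the neutrophil attractant Cxcl1 did not pass (1.60 ± 0.49, adjusted p = 0.0558). The 9 CXC calls were 4 with median centring or without array 4, 3 without array 5 or 13, 5 without array 6, 14 or 15 and 2 without arrays 6 and 15, and the 1 lower call was 0 without any 1 array or without arrays 6 and 15. Macrophage and neutrophil genes rose beside these lists, as given above, and their part in the cytokine and chemokine values was not tested.

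Immediate early genes, the first to be transcribed after a stimulus, had 17 of 32 higher, 0 lower and a median of 1.16. Fos read 7.72, 7.86 and 7.61 on day 0 and 11.35, 10.78 and 10.69 on day 5. The groups were tight and far apart, and Fos rose 9.26-fold (3.21 ± 0.36, adjusted p = 0.000208). The zinc finger factor Egr2 rose 13.2-fold (adjusted p = 0.00184). The stress factor Atf3 rose 4.87-fold (adjusted p = 0.016), but not without array 4, 6 or 13 or without arrays 6 and 15 (adjusted p = 0.0595 to 0.108). The list had 7 calls with median centring or without arrays 6 and 15, and 10 without array 4, 6 or 13.

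Cytoskeletal, annexin and S100 genes had 9 of 34 higher, 0 lower and a median of 0.48, or 0.09 with median centring. Flna, the actin crosslinker filamin A, rose 4.51-fold (adjusted p = 0.000708). Of 23 integrins and adhesion receptors 6 rose, 0 fell and the median was 0.97, with Cd44 the largest. The cytoskeletal calls were 4 with median centring and 5 without array 13 or without arrays 6 and 15. The integrin calls were 2 without array 4 or 13 or without arrays 6 and 15, and 3 without array 5 or 6.

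Of the 49 lists the mitosis list had the highest share of calls. Of 43 genes of mitosis and the kinetochore 37 rose, 0 fell and 6 did not pass, the median was 2.71, and in all 43 the day 5 arrays were above the day 0 arrays, against 24.3% of all genes. Promoters of 3 of them are shown because of 2 sequence motifs known from cell cycle promoters, the CCAAT box that NF-Y binds and the cell cycle homology region (CHR). Capitals mark a match on either strand to CCAAT (also read as ATTGG) or to TTTGAA (also read as TTCAAA). The sequences are from RefSeq (GRCm38.p6), 5′ to 3′ on the strand of the gene and from within 150 bases before its start, leaving out bases that another transcript of the gene covers.

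Mki67 (chr7:135716451-135716529, minus strand): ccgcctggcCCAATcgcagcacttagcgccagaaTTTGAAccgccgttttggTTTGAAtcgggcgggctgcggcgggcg
Top2a (chr11:99024200-99024339, minus strand): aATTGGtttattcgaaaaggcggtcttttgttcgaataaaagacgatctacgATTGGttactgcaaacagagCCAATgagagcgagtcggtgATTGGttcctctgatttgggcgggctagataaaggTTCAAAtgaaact
Cdk1 (chr10:69352913-69353062, minus strand): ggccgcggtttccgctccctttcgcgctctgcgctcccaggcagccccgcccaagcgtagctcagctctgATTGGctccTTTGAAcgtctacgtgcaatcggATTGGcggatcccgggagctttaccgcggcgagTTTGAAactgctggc

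Within 250 bases before the start, CCAAT was found in 28 of 36 promoters of the mitosis list (77.8%) and in 4766 of 13406 (35.6%) of all promoters. TTTGAA was found in 12 of 36 (33.3%) and in 1543 (11.5%). Both were found in 11 of 36 (30.6%) and in 566 (4.22%). In the replication list CCAAT was found in 16 of 27 promoters (59.3%) and TTTGAA in 3 of 27 (11.1%). Matches of both motifs can share at most 1 base, and a match in such a window is a description.

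Mki67, the proliferation marker Ki-67, read 6.65, 7.07 and 6.57 on day 0 and 11.35, 10.50 and 10.43 on day 5. It rose 15.98-fold (4.00 ± 0.27, adjusted p = 8.97e-06). Top2a, the topoisomerase that untangles chromosomes, read 6.47, 6.32 and 6.31 against 10.75, 9.85 and 10.05 and rose 14.4-fold (3.85 ± 0.26, adjusted p = 8.76e-06). Cdk1, the kinase that starts mitosis, read 7.23, 6.59 and 6.66 against 10.53, 10.05 and 9.93 and rose 10.2-fold (3.35 ± 0.27, adjusted p = 2.57e-05). In all 3 the groups were several times further apart than their spread, and array 13 was the highest. Birc5, survivin of the chromosomal passenger complex, rose 12.2-fold (adjusted p = 9.82e-05). The kinetochore gene Ndc80 was at least 6.62-fold higher (adjusted p = 0.00528), and the spindle motor Kif11 did not pass (2.00 ± 0.80, adjusted p = 0.141).

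Genes of DNA replication and the G1/S step had 18 of 34 higher, 0 lower and a median of 1.16. Uhrf1, which maintains DNA methylation at replication, read 7.67, 7.69 and 7.87 against 11.29, 10.72 and 10.96 and rose 9.48-fold (adjusted p = 5.55e-06). Thymidine kinase Tk1 rose 8.84-fold (adjusted p = 0.000576) and the helicase subunit Mcm6 6.55-fold (adjusted p = 8.43e-05). Mcm5 rose 2.84-fold (adjusted p = 0.0156), but not without array 4, 5 or 13, without arrays 6 and 15 or with median centring (adjusted p = 0.0566 to 0.0803). The replication calls were 9 with median centring or without array 13, 10 without array 4 and 8 without arrays 6 and 15. Macrophage, fibroblast and tubular injury genes rose on the same arrays, and which cells carried the cell cycle RNA was not tested.

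Some lists stayed near the median of all genes. None of 26 cytosolic ribosomal protein genes passed, and their median of 0.11 turned to -0.19 with median centring. Rpl10a, the endogenous gene for the tagged ribosomal protein, was at 13.38 ± 0.13 and 13.55 ± 0.11, and its difference of 0.17 ± 0.18 changed sign with median centring (-0.13). Of 26 genes of folding and secretion in the endoplasmic reticulum 0 rose and 2 fell (1 without any 1 array or without arrays 6 and 15), and the median of 0.28 turned to -0.08 under that scaling. Of 27 epithelial junction genes 0 rose (1 without array 4) and 1 fell (0 without any 1 array or without arrays 6 and 15), with a median of -0.03.

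**Figure D4:**
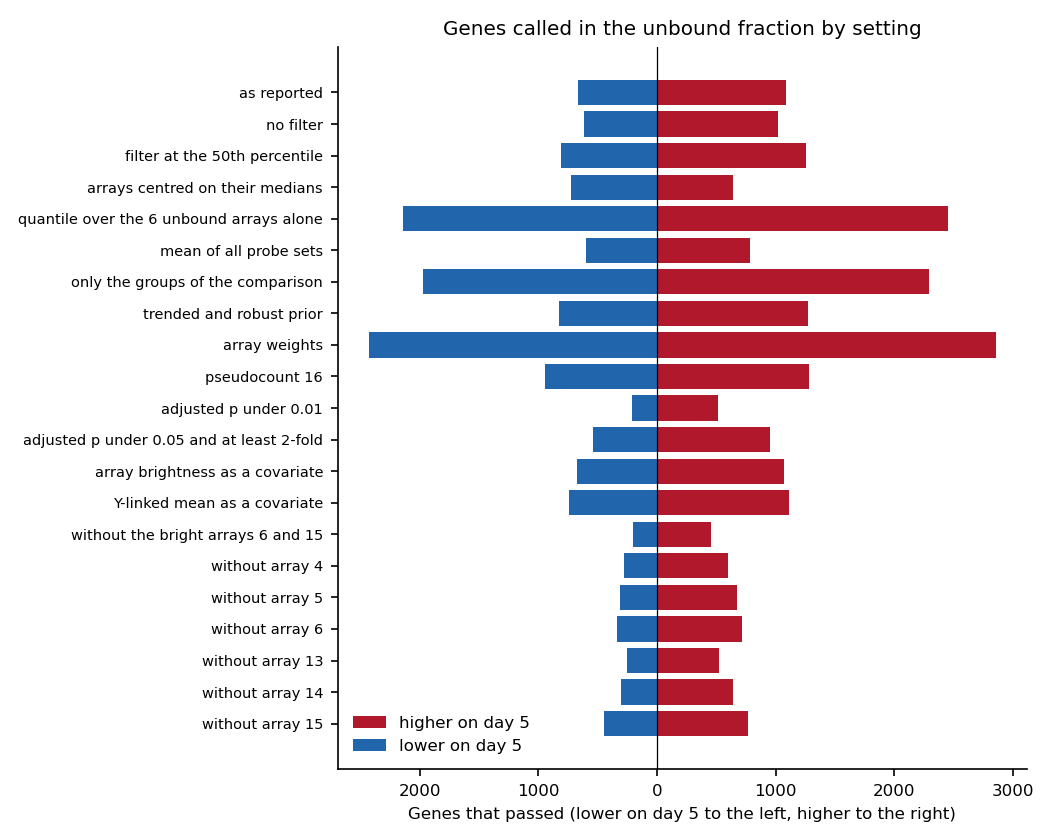
Number of genes that passed in the unbound fraction under each processing setting, with genes higher and lower on day 5 drawn to opposite sides. The reported setting gives 1085 higher and 662 lower, and the setting without arrays 6 and 15 gives 454 and 198.

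The bound fraction of the same days holds the RNA that was captured with the tagged ribosomes. Tubule genes were bright in it as well, with day 0 means of 13.53 for Umod, 13.19 for Slc12a1 and 11.59 for Lrp2. How much of the bound RNA came from cells without an active transgene was not tested. The bound arrays were less well matched in quality than the unbound ones. Array 12 of day 5 was bright, with hybridization controls at 12344 against 4727 to 5776 on the other 5 bound arrays, and low in Y-linked signal, at 1.93 against 6.73 to 9.21, and no day 0 bound array shared either. Array 11 had a Gapdh 5′ to 3′ ratio of 0.0269 against 0.375 to 0.532 on the other 5. The part of these differences in the bound values was not tested beyond leaving out array 12. The bound fraction had 3996 calls (23.7%), 2312 higher (13.7%) and 1684 lower (9.99%), and 3076 calls without array 12 or 1964 without arrays 6, 12 and 15. Of the genes called in the unbound fraction, 754 higher ones were also higher in the bound fraction, which is 69.5% of the unbound and 32.6% of the bound calls. For genes lower on day 5 the shared number was 373, which is 56.3% of the unbound and 22.1% of the bound calls. Opposite calls were made for 8 genes. The test of the difference between both changes, unbound minus bound, passed for 3 genes (0.0178%), Kcnmb4, Cenph and C130073F10Rik, and 2395 genes (14.2%) had an unadjusted p under 0.05. It passed for 0 genes without arrays 6 and 15 (limma, 1559 at an unadjusted p under 0.05), for 2 without array 12, for 338 with only these 4 groups in the fit and for 1936 with array weights.

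**Figure D5:**
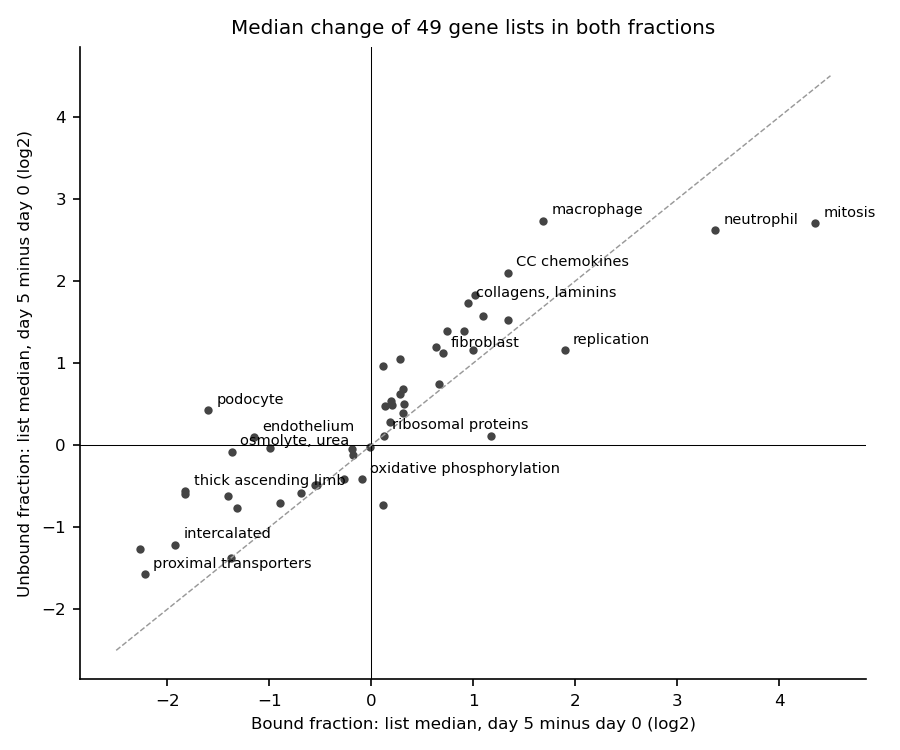
Median log2 difference of the 49 gene lists, day 5 minus day 0, in the bound (horizontal) and unbound (vertical) fraction. Each point is a list and the dashed line marks equal values. Mitosis lies at 4.35 and 2.71, and podocyte genes at -1.60 and 0.43. Dim values were not raised to the negative controls in these medians.

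These 3 calls rest on values under the negative controls. Cenph, a subunit of the inner kinetochore, was at the controls on day 0 in both fractions, and was at least 7.49-fold higher on day 5 in the unbound and at least 17.7-fold higher in the bound fraction. Kcnmb4, a regulatory subunit of BK potassium channels, was at the controls in both unbound groups and on day 0 of the bound fraction, where it was at least 2.40-fold higher on day 5. C130073F10Rik was at the controls in all 4 groups, so no fold is given. With values raised to the negative controls of their array before the fit, an alternative chosen after the data were seen, the differences of Cenph (adjusted p = 0.185), Kcnmb4 (adjusted p = 0.133) and C130073F10Rik (adjusted p = 0.37) did not pass, while 63 other genes passed. Cenph did not pass without array 12 either (adjusted p = 0.0586). These 3 genes are named because they are the only calls.

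Several stromal genes had larger differences between the days in the unbound than in the bound fraction, and did not pass the test of the difference. Their levels were not larger there. Mean bound levels on day 0 and day 5 were 11.61 and 12.98 for Col1a1 and 12.68 and 13.60 for Acta2. These lay above every unbound array of the same day. Col1a1 changed by 3.10 ± 0.19 in the unbound and by 1.36 ± 0.19 in the bound fraction (difference 1.74 ± 0.27, adjusted p = 0.0592). Acta2 changed by 2.00 ± 0.21 and 0.92 ± 0.21 (adjusted p = 0.182), and Col3a1 by 2.36 ± 0.19 and 1.02 ± 0.19 (adjusted p = 0.0904). Other stromal genes changed more in the bound fraction. Thy1 rose 60.4-fold there, Actg2 28.0-fold and Postn 16.7-fold, each more than its unbound fold given above. None of them passed the test of the difference either. For mitosis genes the median was 2.71 in the unbound and 4.35 in the bound fraction, where 43 of 43 rose. Some of these genes, such as Ndc80 and Kif11, were at the negative controls on day 0 of the bound fraction (means 2.37 and 3.61). With dim values raised to the controls the unbound median was 2.69, and the bound median was not computed that way. The sizes of both medians are therefore not strictly comparable. Havcr1 changed by 6.25 ± 0.56 and 6.36 ± 0.56 and Lcn2 by 3.81 ± 0.28 and 4.10 ± 0.28. Synpo moved in opposite directions, 1.38 ± 0.27 and -1.25 ± 0.27 (difference 2.64 ± 0.38, adjusted p = 0.0546).

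In the bound fraction the tubule lists below had more lower calls than in the unbound, and endothelial and podocyte lists, which had medians above 0 in the unbound fraction, had medians under 0. Proximal transporters had 7 lower in the unbound and 20 in the bound fraction (medians -1.57 and -2.22), thick ascending limb markers 4 and 11 (medians -0.56 and -1.82) and endothelial genes 0 and 14 (medians 0.09 and -1.15). Podocyte genes had 3 higher and 1 lower in the unbound and 0 higher and 10 lower in the bound fraction (medians 0.43 and -1.60). In none of these 4 lists did a gene pass the test of the difference. Fgb, at least 11.1-fold higher in the unbound fraction, was at 0.62 ± 0.84 in the bound fraction (difference 4.95 ± 1.18, adjusted p = 0.149). Vegfb fell by 1.84 ± 0.24 in the unbound fraction and was at 0.17 ± 0.24 in the bound fraction (difference -2.01 ± 0.34, adjusted p = 0.0647).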

How the data were processed

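The deposited files hold the authors' intensities on a linear scale, 1 column for each of 15 one-colour Affymetrix arrays. How probes were summarised, background-corrected or scaled is not given in the sources used here. Unbound arrays had medians from 35.8 to 198.8, so no scaling between arrays is evident.

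Values were taken as log2 after adding 1 and quantile normalised over all arrays. Beside 64 controls there were 45037 probe sets, of which 34945 could be tied to a single gene, 932 to more than 1 gene and 9160 to none. Most ties (34741) used Entrez identifiers. A gene with several probe sets was represented by the brightest on average, which gave 18193 genes. A gene was tested if at least 3 arrays had it over their 25th percentile, as held for 16864. Limma 3.58.1 (R 4.3.3) was fitted to all 15 arrays with 5 group coefficients, 10 residual and 2.32 prior degrees of freedom. The highest of 27 negative control probe sets was the floor of an array. The difference test subtracts the change of the bound fraction from that of the unbound. The model was also run on simulated data with known shifts and independent spread for each gene. That simulation held no bright arrays and no values under negative controls, so it does not cover those features of the arrays.

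The gene lists, members and motifs were chosen with earlier results of these data known. Genes could be named as 1 of the 12 largest rises or 12 largest falls among calls whose groups did not overlap (clone names left out), as 1 of the 5 largest calls of a list, as the largest difference of a list that did not pass, or as a landmark gene, and 171 genes are printed in all. Other genes are marked as chosen after their values were seen. Alternatives were the filter, median centring, quantile normalisation of the unbound arrays alone, averaged probe sets, fewer groups, the prior, array weights, a pseudocount of 16, stricter thresholds, covariates for brightness and Y-linked signal, and leaving out arrays. Leaving out array 12 and raising dim values to the negative controls were added after the data were seen. No list was tested as a set. Promoters and their coordinates are from RefSeq (GRCm38.p6). Figures were drawn with matplotlib 3.10.9.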

Additional observations from a re-analysis of the deposited data

Results flagged for a closer look

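For 3 genes the change from day 0 to day 5 differed between the unbound and the bound fraction in the test of that difference (limma, adjusted over all genes). Cenph differed by -3.35 ± 0.43 on the log2 scale (adjusted p = 0.0207), Kcnmb4 by -5.66 ± 0.56 (adjusted p = 0.00441) and C130073F10Rik by -3.75 ± 0.45 (adjusted p = 0.0185). These sizes rest on values under the negative controls, in both day 0 groups for Cenph, in 3 of 4 groups for Kcnmb4 and in all 4 for C130073F10Rik. None of the 3 passed with values raised to the controls (limma, adjusted p = 0.133 to 0.37). No cause was tested.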

How the results depend on the processing

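The 1747 calls of the unbound fraction (1085 higher, 662 lower) became 4592 (2455 and 2137) with quantile normalisation over the 6 unbound arrays alone, 4254 (2287 and 1967) with only the groups of the comparison, 5280 (2854 and 2426) with array weights, 723 (511 and 212) at an adjusted p under 0.01 and 652 (454 and 198) without arrays 6 and 15. Median centring gave 638 higher genes. Leaving out 1 array gave 770 to 1211 calls, 520 to 765 higher and 250 to 446 lower. The 3 calls for the difference between the fractions became 17 with a filter at the 50th percentile, 338 with only these groups, 59 with a trended and robust prior, 1936 with array weights, 47 with a pseudocount of 16, 1 with median centring or at an adjusted p under 0.01, 0 without arrays 6 and 15 (limma, with 1559 genes at an unadjusted p under 0.05) and 1 to 2 without single arrays. Rpl10a changed sign with median centring (-0.13). Of the alternatives chosen after the data were seen, leaving out array 12 gave 2 such calls, leaving out arrays 6, 12 and 15 gave 0 (1447 at an unadjusted p under 0.05) and raising dim values to the negative controls gave 63, with 2174 calls in the unbound fraction. The causes were not tested. Of 171 genes named in the text, 136 passed and 107 of them passed under every alternative but the stricter thresholds and those chosen after the data were seen. No paired analysis was possible because the labels do not say which bound and unbound arrays come from 1 lysate. The test of the difference treats the arrays of both fractions as independent, which was not tested. Dim genes are limited by the negative controls.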

Other observations

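The genes in this part were chosen after their values were seen. Slc2a4, the insulin-regulated glucose transporter, read 9.48, 9.78 and 9.91 on day 0 and 6.36, 6.06 and 6.24 on day 5 and fell 11.3-fold (adjusted p = 0.000172). Mybpc3, a myosin-binding protein of the sarcomere, fell 9.94-fold (adjusted p = 0.00114). Fitm1, which acts in lipid droplet formation, was at least 5.95-fold lower (adjusted p = 0.000302) and the myosin heavy chain gene Myh1 at least 2.84-fold lower (adjusted p = 0.014), though Myh1 did not pass without array 5, 13 or 14 (adjusted p = 0.0518 to 0.0732). All 4 were lower in the bound fraction too, where Slc2a4 fell by 2.76 ± 0.37 and Mybpc3 fell by 1.92 ± 0.48 on the log2 scale, while Fitm1 was at least 1.67-fold and Myh1 at least 1.41-fold lower. Of other genes known from striated muscle, the cardiac actin Actc1 rose 5.15-fold (adjusted p = 0.0292) and Ankrd1 3.58-fold (adjusted p = 0.0396), so these genes share no direction. Actc1 did not pass without array 4, 5, 6, 14 or 15 or without arrays 6 and 15 (adjusted p = 0.0656 to 0.173), nor Ankrd1 without any 1 array, without arrays 6 and 15 or with median centring (adjusted p = 0.075 to 0.197).

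Aldh1a2, which makes retinoic acid, rose 29.3-fold (7.40, 6.25 and 6.52 against 11.34, 11.57 and 11.88, adjusted p = 9.81e-05). The neuronal tubulin gene Tubb3 was at least 6.95-fold higher (adjusted p = 0.00228) and the ligand gene Wnt7a at least 8.36-fold (adjusted p = 0.000609), which did not pass with averaged probe sets (adjusted p = 0.149) and whose other probe sets had the opposite sign. While Foxj1 was at least 10.4-fold higher, genes of motile cilia did not pass, with Ccdc39 at 0.91 ± 0.50 (adjusted p = 0.294), Dnah5 at 0.16 ± 0.64 (adjusted p = 0.907) and Tekt1 at 2.75 ± 0.99 (adjusted p = 0.103). Slc7a13, a proximal transporter, read 12.18, 11.51 and 11.33 against 9.27, 10.00 and 4.23 and did not pass (-3.84 ± 1.43, adjusted p = 0.114). Its low array was array 15, as for Slco1a1.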
